A study of Mus musculus with 24 samples.

Results

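The forkhead (Fox) genes encode transcription factors that share the winged-helix forkhead DNA-binding domain and are sorted into subfamilies by letter. Members were taken by name from the protein-coding genes of the GENCODE vM21 basic annotation, as Fox followed by a letter and a number, which gave 44 of 21755 protein-coding genes on 20 chromosomes (the autosomes and X). The measurement was H3K4me3, the trimethylation of lysine 4 of histone H3, mapped by ChIP-seq in C127 cells. These are known as an established mouse mammary epithelial line. They were grown without treatment and, for these samples, were not described as carrying a transgene. The series had 24 samples in 12 groups, of which 3 H3K4me3 replicates with 1 input sample were used here through a single list of peaks called in every replicate. The other groups had 2 samples each and held ChIP of CFP1, a subunit of the SET1 complexes that deposit H3K4me3, ChIP of KDM2B and RNA polymerase II, ChIP against GFP in lines with GFP alone, GFP-CFP1 or its mutants, and inputs, and were not analysed here.

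A gene was counted as having a peak when a listed peak came within 250 bp of any of its annotated transcription start sites (TSSs). The list held 13451 peaks as positions alone, so peak height, the spread between replicates and the read depth behind a peak are unknown, and a gene without a peak may still carry H3K4me3 that was not called in all replicates. Intervals given below are 95% Wilson intervals, which cover counting error over genes only, and no test was made. The label of the line was checked against marker genes, beside a share of 49.4% in all protein-coding genes. Of 14 epithelial markers, among them the cadherin gene Cdh1 and the keratin genes Krt8 and Krt18, 0 had a peak, which allows a share of up to 21.5%. Of 14 mesenchymal markers 10 had one, among them Vim and Twist1, and Col1a1, Col3a1, Prrx1 and Thy1 had none. The peaks at these markers thus did not bear out the epithelial label, and expression of the markers was not examined. The markers were not matched by CG dinucleotides within 250 bp of a TSS. These ran from 11 (Krt19) to 69 (Epcam) in the epithelial and from 4 (Col3a1) to 66 (Cdh2) in the mesenchymal markers. The part of the difference between both marker sets in the results below was not tested.

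Forkhead proteins bind DNA through a compact domain that resembles that of linker histones, and some members, the FOXA proteins above all, can bind closed chromatin and open it for other factors. Many members, such as those of the FOXA, FOXC, FOXD, FOXE, FOXF and FOXL subfamilies, are expressed in restricted lineages of the embryo and the adult, whereas FOXJ2, FOXJ3, FOXK, FOXM1 and FOXO proteins act in many cell types in the control of growth, metabolism and the cell cycle. In the mammary gland, FOXA1 is known as a partner of the estrogen receptor in luminal epithelial cells, and FOXC1 is known as a marker of basal-like breast tumours. H3K4me3 marks the starts of transcribed genes and of many genes with CpG islands, which are stretches of DNA rich in CG dinucleotides.

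To show what the start sites of members with and without a peak look like, the promoters of 6 members are given, each running from 250 bases before to 50 bases after the gene start in the RefSeq table for GRCm38.p6 (mm10), written 5′ to 3′ on the strand of the gene with each CG dinucleotide in capitals. Foxc1, which controls the development of mesenchyme and vessels, had the widest peak of all members, and its promoter (chr13:31806396-31806695, plus strand) held 32 CG dinucleotides and lay wholly in that peak.
Foxc1: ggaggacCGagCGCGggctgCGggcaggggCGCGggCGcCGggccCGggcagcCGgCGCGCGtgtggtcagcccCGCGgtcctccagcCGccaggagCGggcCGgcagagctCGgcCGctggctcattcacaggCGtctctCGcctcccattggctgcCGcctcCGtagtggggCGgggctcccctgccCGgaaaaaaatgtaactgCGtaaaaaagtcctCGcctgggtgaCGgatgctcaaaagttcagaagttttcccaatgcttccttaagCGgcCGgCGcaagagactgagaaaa
Foxf2, a factor of gut and palate mesenchyme, lies in the same cluster as Foxc1 and had a peak 7919 bp wide. Its promoter (chr13:31625566-31625865, plus strand) held 27 CG dinucleotides, all of them inside the peak.
Foxf2: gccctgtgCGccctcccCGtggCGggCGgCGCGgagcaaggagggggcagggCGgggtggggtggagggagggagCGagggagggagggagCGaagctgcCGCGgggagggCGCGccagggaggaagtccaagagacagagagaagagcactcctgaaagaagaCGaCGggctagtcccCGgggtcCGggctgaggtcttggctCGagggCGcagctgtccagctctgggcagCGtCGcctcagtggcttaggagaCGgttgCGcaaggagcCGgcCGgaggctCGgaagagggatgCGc
Foxd2, a factor of kidney mesenchyme, and Foxe3, a factor of the lens, are neighbours on chromosome 4 and show both states. The promoter of Foxd2 (chr4:114908849-114909148, minus strand) held 26 CG dinucleotides and lay wholly in a peak.
Foxd2: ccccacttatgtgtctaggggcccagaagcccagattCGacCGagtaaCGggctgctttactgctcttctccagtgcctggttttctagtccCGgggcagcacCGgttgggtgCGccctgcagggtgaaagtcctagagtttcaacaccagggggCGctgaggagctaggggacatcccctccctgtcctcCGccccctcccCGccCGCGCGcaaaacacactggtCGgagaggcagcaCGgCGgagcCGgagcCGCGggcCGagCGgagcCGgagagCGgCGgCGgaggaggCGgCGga
The promoter of Foxe3 (chr4:114926018-114926317, minus strand) held 10 CG dinucleotides and none of its bases lay in a peak. Its RefSeq start lies 54 bp from the GENCODE TSS. Within 250 bp of the GENCODE TSS, on both sides together, the counts were closer, with 46 at Foxe3 and 55 at Foxd2.
Foxe3: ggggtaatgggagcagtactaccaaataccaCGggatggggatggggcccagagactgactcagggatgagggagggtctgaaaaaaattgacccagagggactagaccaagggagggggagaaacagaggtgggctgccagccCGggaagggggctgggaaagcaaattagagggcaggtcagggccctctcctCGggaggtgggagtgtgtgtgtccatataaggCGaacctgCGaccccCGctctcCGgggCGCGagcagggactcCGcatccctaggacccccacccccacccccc
Foxa1 was the member without a peak that had the most CpGs within 250 bp of a TSS, with 61 on both sides together. Its promoter (chr12:57546062-57546361, minus strand) held 26 of them, as many as that of Foxd2.
Foxa1: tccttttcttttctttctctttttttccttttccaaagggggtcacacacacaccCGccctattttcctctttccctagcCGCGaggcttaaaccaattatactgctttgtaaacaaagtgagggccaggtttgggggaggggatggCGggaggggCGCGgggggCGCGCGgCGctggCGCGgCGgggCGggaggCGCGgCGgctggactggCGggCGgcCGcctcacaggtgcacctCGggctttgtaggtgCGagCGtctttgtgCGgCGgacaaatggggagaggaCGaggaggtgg
Foxr2, with 6, had the fewest of all members. Its promoter (chrX:153118538-153118837, plus strand) held 3.
Foxr2: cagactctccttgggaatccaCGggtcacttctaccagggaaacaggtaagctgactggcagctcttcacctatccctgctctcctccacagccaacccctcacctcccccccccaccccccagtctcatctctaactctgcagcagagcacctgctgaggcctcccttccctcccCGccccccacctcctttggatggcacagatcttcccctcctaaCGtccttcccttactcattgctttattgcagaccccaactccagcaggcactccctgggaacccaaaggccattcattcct

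A peak was found at 21 of the 44 forkhead genes, or 47.7% (33.8% to 62.1%), and the share among all protein-coding genes was 49.4% (10747 of 21755). The members with a peak were spread over 11 of the 19 subfamilies. In 6 subfamilies, with 13 genes, every gene had a peak: FOXF, FOXJ, FOXK, FOXM, FOXO and FOXS. In 8 subfamilies, with 15 genes, none had one, among them FOXA, FOXB, FOXE, FOXH, FOXI, FOXQ and FOXR. The remaining 5 subfamilies, FOXC, FOXD, FOXL, FOXN and FOXP, with 16 genes, held both kinds. Of the subfamilies with peaks at all of their genes or at none, 5 hold a single gene. For comparison, 9 of 32 Sox and Tbx genes, which encode other developmental transcription factors, had a peak, or 28.1% (15.6% to 45.4%), and 11 of 17 Klf genes, which encode zinc finger factors, had one, or 64.7% (41.3% to 82.7%). These intervals overlap that of the forkhead genes.

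The members with a peak covered a broad range of peak widths. The widest TSS peak of a forkhead gene had a median width of 4105 bp over 21 genes (quartiles 2782 and 5090 bp, range 1737 to 8866 bp), and the median over all 10747 protein-coding genes with a peak was 3254 bp (quartiles 2411 and 4258 bp). The 95% order-statistic interval of the forkhead median, 2782 to 5090 bp, includes the median of all genes. In members with 1 or 2 exons the median was 3290 bp over 8 genes against 3304 bp in all such genes, and in members with 3 or more exons it was 4398 bp over 13 genes against 3251 bp. The longest CpG island at a TSS had a median length of 1700 bp in the 21 members with a peak and 1024 bp in all 10398 island genes with a peak. Longer islands were not limited to members with a peak. Among island genes without a peak the median was 1330 bp in 18 members and 699 bp in all 4410 genes.

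**Figure D1:**
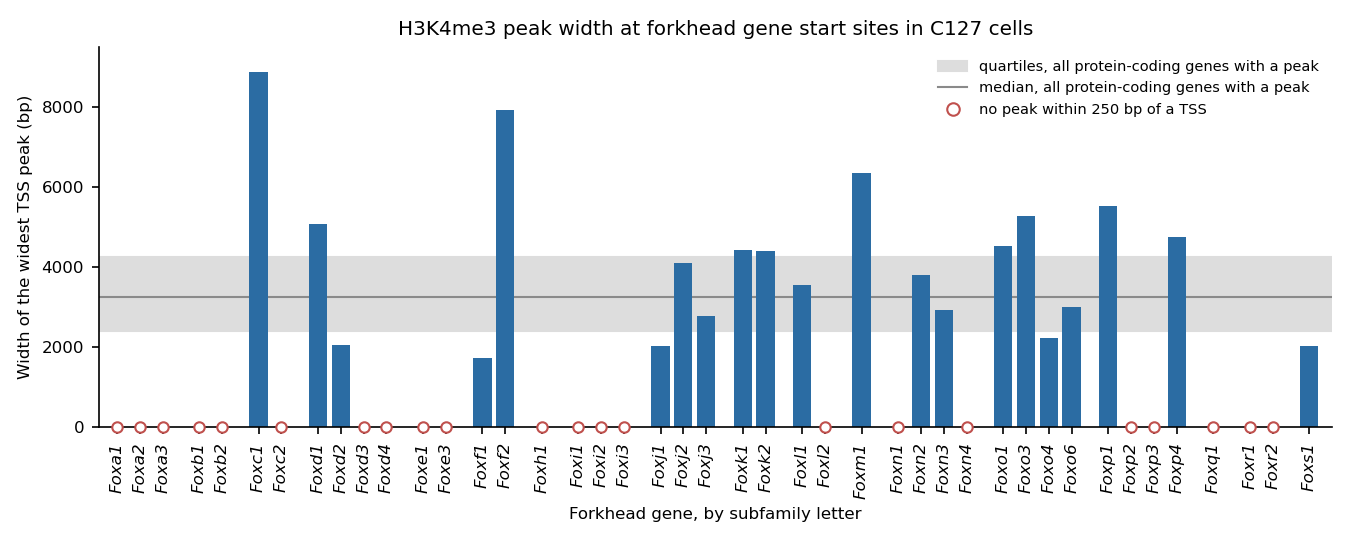
Width in bp of the widest H3K4me3 peak within 250 bp of a TSS for 43 of the 44 forkhead genes, ordered by subfamily letter, with bars for the 21 genes with a peak, open circles at 0 for 22 without, and a line and band for the median (3254 bp) and quartiles of all protein-coding genes with a peak. Foxc1 and Foxf2 stand highest at 8866 and 7919 bp, and FOXA, FOXB, FOXE, FOXH, FOXI, FOXQ and FOXR show circles alone.

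The FOXO genes encode factors that are kept in the cytoplasm by AKT phosphorylation downstream of insulin and growth factor receptors. All 4 had a peak. Foxo3 had the widest, at 5279 bp (chr10:42273647-42278925), wider than 88.3% of all protein-coding genes with a peak, and this peak covered each of its 4 annotated TSSs and a CpG island of 4105 bp, the longest of any member. The peak of Foxo1 was 4520 bp wide and that of Foxo6 was 3015 bp. Foxo4, on the X chromosome, had the narrowest at 2243 bp, and with 24 CpGs within 250 bp of its TSS it had far fewer than the 62 to 66 of the other FOXO genes.

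Foxm1, which drives transcription of mitotic genes, had a peak of 6356 bp (chr6:128359659-128366014), wider than 93.9% of genes with a peak. This peak was shared with Rhno1, a checkpoint gene transcribed from the other strand, and reached 3308 bp upstream and 3047 bp downstream of the Foxm1 TSS. The FOXK genes, whose products recruit SIN3 and BAP1 complexes, had peaks of nearly equal width, 4428 bp at Foxk1 and 4398 bp at Foxk2. Foxk2 had the most CpGs of all members, 103 within 250 bp of its TSS.

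Within the FOXJ subfamily the widely expressed members had wider peaks than Foxj1, the regulator of motile cilia. The peak of Foxj2 was 4105 bp wide and that of Foxj3 was 2782 bp, whereas that of Foxj1 was 2024 bp, narrower than at most genes (percentile 15.1). Foxj1 had 44 CpGs around its TSS against 68 at Foxj2 and 74 at Foxj3.

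The FOXP genes encode repressors that act as dimers. Foxp1 had TSS peaks at separate promoters, of 5542 bp (chr6:99518804-99524345) and 3924 bp (chr6:99025447-99029370), at 3 of its 6 basic TSSs. The peak of Foxp4 was 4745 bp wide and covered all 4 of its TSSs and the start of Gm15556. Foxp2, best known from the brain, and Foxp3, the factor of regulatory T cells, had no TSS peak. The nearest peak to any Foxp2 TSS was 523385 bp away. The Foxp2 TSS with an island of 982 bp, the first of the gene, lay 819000 bp from a peak.

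Of the FOXN genes, Foxn2 and Foxn3 had peaks, of 3813 and 2941 bp. The Foxn3 peak covered 2 of its 3 basic TSSs. The remaining basic TSS, position 99450074, is the curated RefSeq start and lay 56108 bp from a peak. Whether Foxn3 counts as a gene with a peak thus depends on the annotation. Foxn1, the regulator of thymic epithelium, and Foxn4, a factor of retinal progenitors, had none at a TSS. The CpG counts divided the same way, with 62 at Foxn2 and 69 at Foxn3 against 12 at Foxn1 and 31 at Foxn4.

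Members of the FOXC, FOXD, FOXF, FOXL and FOXS subfamilies had both the widest and the narrowest peaks, and Foxc2, Foxd3, Foxd4 and Foxl2 of these subfamilies had none. Foxc1 had a peak of 8866 bp (chr13:31805193-31814058), wider than 98.3% of genes with a peak, which covered the whole of its single exon. The Foxf2 peak of 7919 bp (chr13:31623159-31631077) was wider than 97.4% and covered 94.2% of the gene. Foxd1, a marker of kidney stroma, had a peak of 5090 bp (chr13:98353662-98358751) over 89.1% of its single exon. The peak of Foxl1, a factor of gut mesenchyme, was 3564 bp wide.

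In contrast, Foxf1, which shares its subfamily and its CpG count of 60 with Foxf2, had the narrowest peak of any member at 1737 bp (chr8:121082821-121084557, percentile 9.95). Foxd2 with 2065 bp and Foxs1, a factor of cells derived from the neural crest, with 2045 bp were also narrow. Foxs1 was the member nearest to the limit of 250 bp on the inside, since its peak (chr2:152931083-152933127) ended 81 bp downstream of the TSS and covered 93.8% of the gene. On the outside, the nearest was Foxa3, whose TSS lay 362 bp from a peak.

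The 23 genes without a TSS peak included Foxa1, Foxa2, Foxa3, Foxb1, Foxb2, Foxc2, Foxd3, Foxd4, Foxe1, Foxe3, Foxh1, Foxi1, Foxi2, Foxi3, Foxl2, Foxn1, Foxn4, Foxp2, Foxp3, Foxq1, Foxr1 and Foxr2. Their distance to the nearest peak had a median of 58853 bp. In 9 of them it was over 100000 bp. Foxa2, a factor of endoderm, lay 116699 bp away, and Foxa1 lay 314247 bp away. At Foxb1, Foxi1, Foxi2, Foxi3, Foxp2 and Foxr2 it was between 109573 and 623376 bp.

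Another 10 lay between 5000 and 100000 bp from a peak, namely Foxb2, Foxc2, Foxd3, Foxd4, Foxe1, Foxe3, Foxl2, Foxn1, Foxn4 and Foxr1. Of these, Foxc2 was closest at 6991 bp. Foxl2, a factor of ovarian granulosa cells, shares its promoter with the lncRNA gene Foxl2os, whose TSS lies 11 bp from that of Foxl2 and had no peak either.

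Only 4 lay within 5000 bp of a peak, and at each of them the peak covered the start of another gene. The peak 362 bp from Foxa3 was at Sympk, which encodes a scaffold of the polyadenylation machinery, and that 921 bp from Foxh1, which encodes a SMAD partner in Nodal signalling, was at Ppp1r16a. For Foxp3 the peak, 2355 bp wide and 4138 bp from the nearest basic TSS, covered starts of Ppp1r3f and the lncRNA gene Flicr and lay upstream of every basic Foxp3 TSS. It also covered position 7573644 on chromosome X, a Foxp3 start in the comprehensive annotation. At Foxq1 a peak of 3333 bp (chr13:31557335-31560667) began 1201 bp downstream of the basic TSS, lay over 68.8% of the gene and covered the start of A530084C06Rik on the other strand. The curated RefSeq start of Foxq1, position 31558170, lay inside this peak, so whether Foxq1 counts as a gene with a peak depends on the annotation.

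The CpG content of the start site differed between members with and without a peak. The most CpGs within 250 bp of a TSS had a median of 62 in the 21 members with a peak and 31 in the 23 without, and over all protein-coding genes these medians were 43 and 9. Among members with 60 or more, 14 of 15 had a peak, or 93.3% (70.2% to 98.8%), and the share among all protein-coding genes with as many was 82.0%. The exception was Foxa1 with 61.

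Among the 23 members with 15 to 59 CpGs, 6 had a peak, or 26.1% (12.5% to 46.5%), whereas 70.9% of all protein-coding genes in that range had one. Those with a peak were Foxc1, Foxd1, Foxd2, Foxj1, Foxl1 and Foxo4. The members without a peak reached 47 CpGs at Foxd3, a factor of the neural crest, and 52 at Foxi3, a factor of the ectoderm. The interval of the forkhead share lay below the share of all genes. However, the ranges of 15 to 59 and of 60 or more CpGs were chosen after seeing the data, so the interval is a description and no support for a difference. The limits of 15, 30, 45 and 60 CpGs are round numbers and were not varied.

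Below 15 CpGs, Foxs1 with 14 had a peak among 6 members, and 5.97% of all protein-coding genes there had one. In the narrower classes, 1 of 7 members with 15 to 29 CpGs had a peak against 48.4% of all genes, 3 of 10 with 30 to 44 against 77.1%, and 2 of 6 with 45 to 59 against 83.1%. All 3 of these classes lay below the share of all genes, and the count in each was small.

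**Figure D2:**
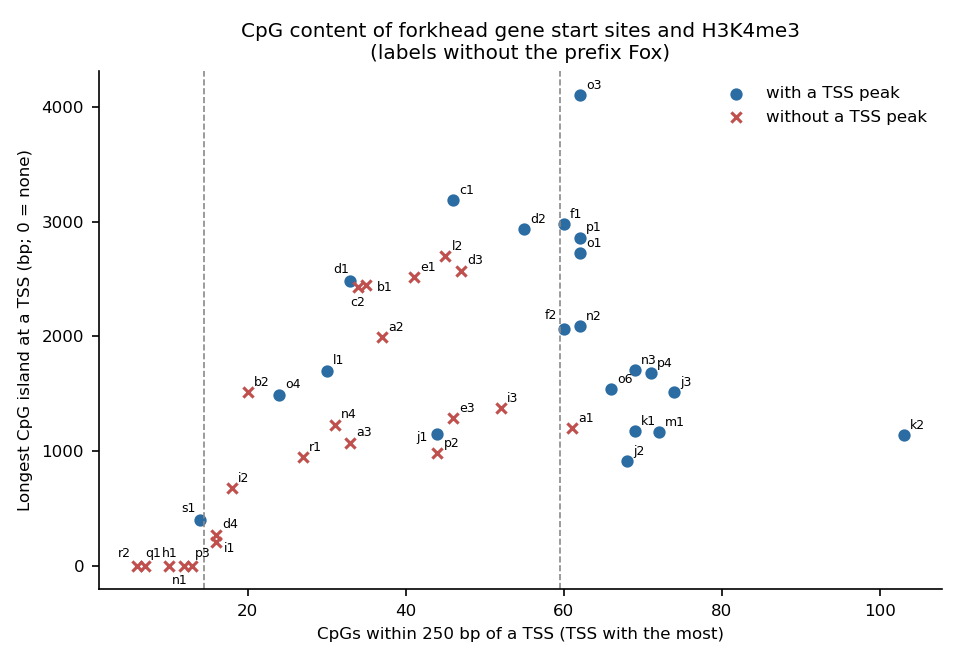
CpGs within 250 bp of the TSS with the most of them (horizontal axis) against the length in bp of the longest CpG island at a TSS (vertical axis, 0 for none), with filled circles for the 21 forkhead genes with a TSS peak, crosses for 22 without, and dashed lines at the limits of 15 and 60 CpGs. To the right of 60 CpGs Foxa1 is the single cross, and between the dashed lines crosses outnumber circles 16 to 6, also among islands longer than 2000 bp.

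**Figure D3:**
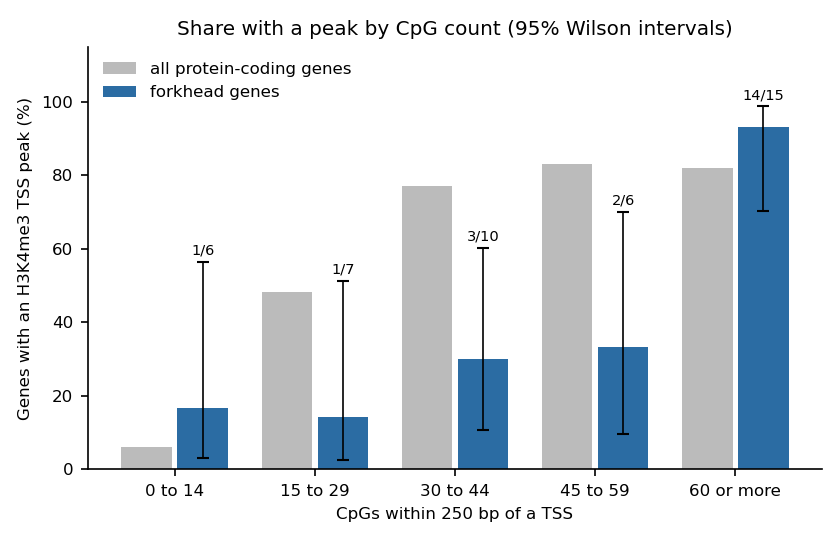
Percent of genes with an H3K4me3 peak within 250 bp of a TSS by class of CpG count, for all protein-coding genes (grey) and forkhead genes (blue, with 95% Wilson intervals and the number with a peak over the number in the class). The forkhead share stays between 14.3% and 33.3% from 15 to 59 CpGs, where that of all genes is 48.4% to 83.1%, and reaches 93.3% at 60 or more.

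Islands gave a similar picture. An island (200 bp or longer, GC fraction from 0.5 and CpG content from 0.6 of that expected from its C and G) lay at a TSS of 39 members, of which 21 had a peak, or 53.8% (38.6% to 68.4%). Over all protein-coding genes with an island the share was 70.2%. Of the Sox and Tbx genes with an island, 7 of 26 had a peak, or 26.9% (14% to 46%), lower than the forkhead share. Of the Klf genes with an island, 11 of 15 had one, or 73.3% (48% to 89%). Both intervals overlap that of the forkhead genes. A share at islands below the 70.2% of all genes was found in the Sox and Tbx genes too, and so was not particular to forkhead genes. None of the 5 members without an island had a peak (0%, upper bound 43.4%), namely Foxh1, Foxn1, Foxp3, Foxq1 and Foxr2, and 5.02% of all protein-coding genes without an island had one. This holds for basic TSSs, at which the islands were sought. With comprehensive and RefSeq starts added, Foxp3 and Foxq1 had a peak. Long islands occurred without a peak, as at Foxl2 with 2696 bp, Foxd3 with 2573 bp and Foxe1, a thyroid factor, with 2516 bp.

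Many forkhead genes are short, with their coding sequence in a single exon. Of the 23 members with 1 or 2 exons in their longest transcript, 8 had a peak, or 34.8% (18.8% to 55.1%), and the share in all such genes was 21.0%. When limited to genes with an island, these shares were 36.4% in 22 members and 46.3% in all genes. Of the 21 members with 3 or more exons, 13 had a peak, or 61.9% (40.9% to 79.2%), and the share in all such genes was 55.1%. With an island it was 76.5% in 17 members and 73.0% in all genes. The intervals of the short and the long members overlap, and each includes the share of all genes in its class, with or without the limit to islands.

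The position of the peak on the gene differed among members. For 20 members the peak covered the TSS, and its reach was measured from the most upstream of the covered TSSs. The median reach was 1507 bp upstream and 2881 bp downstream, against 946 and 2145 bp over all 10646 protein-coding genes with such a peak. Downstream minus upstream reach had a median of 1197.5 bp in members and 1114 bp in all these genes. Foxc1 reached farthest downstream, 7425 bp, with 1440 bp upstream, followed by Foxf2 with 5261 bp and Foxd1 with 4509 bp. In each of these the peak ran along most of the gene.

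A peak that reached farther upstream than downstream was found at 6 of 20 members, or 30% (14.5% to 51.9%), and at 16.3% of all protein-coding genes. The interval includes the share of all genes. With 1 or 2 exons it was 3 of 7 members and 24.6% of all genes, and with 3 or more exons 3 of 13 members and 15.7%. Of the 6 peaks, that of Foxl1 was the most uneven, with 3267 bp upstream and 296 bp downstream. At Foxf1 it reached 1565 bp upstream and 171 bp downstream, at Foxd2 1609 and 455 bp, and at Foxj1 1582 and 441 bp. These 4 peaks stopped within 500 bp of the TSS on the side of the gene, so that they covered 11.0% of Foxl1, 4.58% of Foxf1, 17.6% of Foxd2 and 9.41% of Foxj1. The other 2 were Foxp1 and, by a small margin, Foxm1.

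Starts of other genes lay in some of these peaks. At 6 of the 20 members a basic TSS of the other strand lay within 2 kb, namely Foxd2 (Foxd2os), Foxf2 (1700018A04Rik), Foxj2 (Gm26826), Foxj3 (Frg2f1), Foxm1 (Rhno1) and Foxo1 (Gm20402). Among the 14 members without such a TSS, 4 had a peak longer upstream, Foxf1, Foxj1, Foxl1 and Foxp1, or 28.6% (11.7% to 54.6%), and the share of all genes of this kind was 7.12%. In the comprehensive annotation, further Foxp1 starts lay upstream of the basic TSS within the same peak, up to position 99522721. Measured from that position, the Foxp1 peak would be longer downstream. The Foxf1 peak covered position 121083110, the annotated 5′ end of the lncRNA gene Fendrr on the other strand. With this end counted, Foxf1 would have a start of the other strand within 2 kb. Both cases, and with them the share of 28.6%, thus depend on the annotation. A curated RefSeq start of Foxl1, position 121127685, lay in the upstream stretch of its peak, close to the basic TSS.

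Some peaks left part of the CpG island outside. At 16 of 21 members the longest TSS island lay wholly in peaks, or 76.2% (54.9% to 89.4%), and at all island genes with a peak the share was 88.3%. The 5 others were Foxl1 with 30.8% of the island covered, Foxd2 with 49.2%, Foxf1 with 58.3%, Foxo6 with 84.2% and Foxj1 with 96.9%. In Foxl1 and Foxd2 the uncovered island lay over the gene itself.

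**Figure D4:**
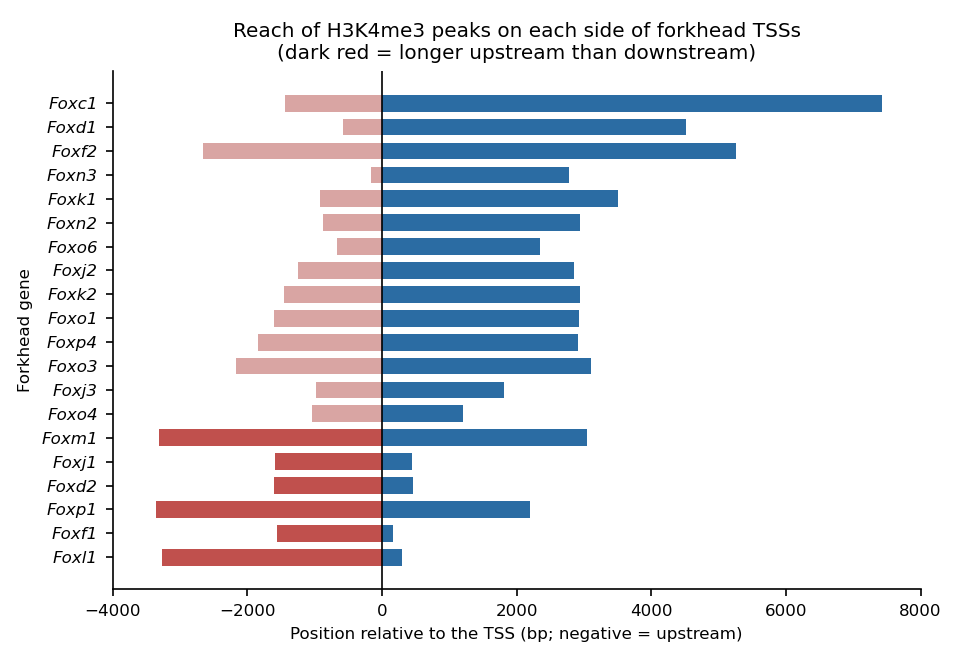
Reach in bp of the H3K4me3 peak upstream (negative, red) and downstream (blue) of the TSS for the 20 forkhead genes whose peak covers a TSS, ordered by the difference between both sides. Foxc1, Foxd1 and Foxf2 extend 4509 to 7425 bp downstream, and the lowest 6 bars, in dark red, are longer upstream, with Foxl1 reaching 3267 bp upstream and 296 bp downstream.

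Forkhead genes that descend from tandem copies lie in clusters. With TSSs within 300 kb of each other counted as linked, 8 members formed 3 clusters. Of these 8, 5 had a peak, or 62.5% (30.6% to 86.3%), an interval that includes the 49.4% of all protein-coding genes. Of the 36 unlinked members 16 had one. By basic TSSs each cluster held members with and without a peak. With comprehensive and RefSeq starts added, 6 of 8 had a peak, since Foxq1 gained one, and all members of the chromosome 13 cluster then did.

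The cluster on chromosome 13 held Foxq1, Foxf2 and Foxc1, all on the plus strand, with 69682 bp from the Foxq1 to the Foxf2 TSS and 180817 bp from there to that of Foxc1. It had 4 peaks. Those of Foxf2 and Foxc1, the widest of all members, were described above, and the 3333-bp peak inside Foxq1 lay off its basic TSS. The Foxf2 peak also covered the start of the lncRNA gene 1700018A04Rik on the other strand, and a peak of 925 bp lay 389 bp from the lncRNA gene Gm11378. No peak lay in the stretch between the Foxf2 and the Foxc1 peak, which holds the lncRNA gene Gm11379.

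The cluster on chromosome 8 held Foxf1, Foxc2 and Foxl1, also on the plus strand, 31785 and 11769 bp apart. Foxc2, which controls the development of lymphatic valves, was the member without a peak although it had an island of 2431 bp and 34 CpGs, more than the 30 of Foxl1. The peak nearest to it, 3640 bp wide, was at the start of Mthfsd, which lies between Foxf1 and Foxc2. The Foxl1 peak (chr8:121124673-121128236) began past the end of Foxc2 and ran up to and over the Foxl1 start.

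Foxc1 and Foxc2, the paralogs of a single subfamily in both clusters, thus lay at opposite ends of the measurement, with the widest peak of all members and with none. Foxf1 and Foxf2 both had a peak, 1737 and 7919 bp wide. In the chromosome 13 cluster the peaks ran into the genes, whereas in the chromosome 8 cluster they lay mostly upstream.

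The cluster on chromosome 4 held Foxd2 and Foxe3, both on the minus strand and 17140 bp apart. The Foxd2 peak (chr4:114908418-114910482) covered the start of the lncRNA gene Foxd2os, 384 bp away on the other strand, and was the single peak of the cluster. Foxe3 had no peak, with an island of 1283 bp and 46 CpGs, fewer than the 55 of Foxd2. The third lncRNA gene named after a member, Foxo6os, starts 4001 bp from Foxo6 and had no TSS peak.

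**Figure D5:**
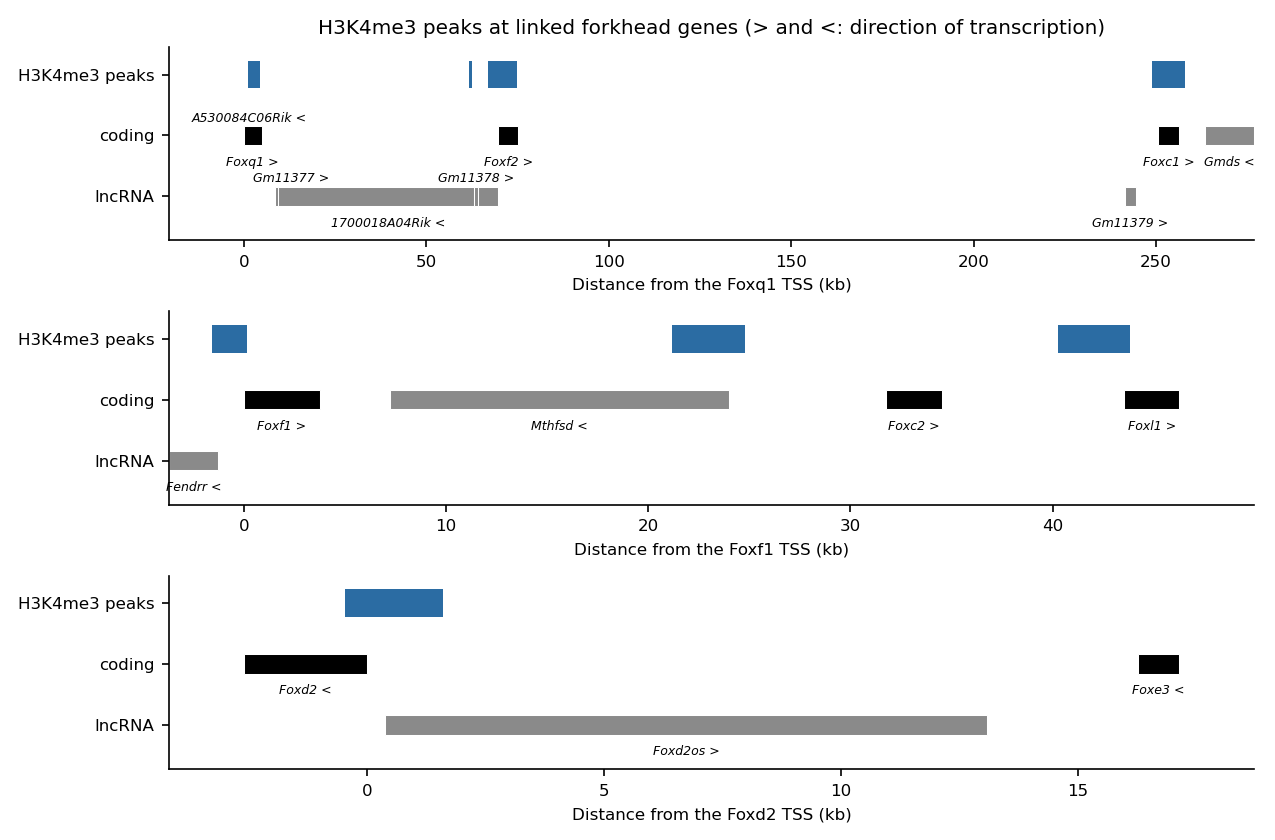
Maps of the 3 linked clusters, with the distance in kb from the TSS of the named member on the horizontal axis, H3K4me3 peaks in blue, forkhead genes in black and other protein-coding and lncRNA genes in grey, where > and < give the direction of transcription. The peaks at Foxf2 and Foxc1 run over the genes, those at Foxf1, Foxl1 and Foxd2 lie mostly upstream, and Foxc2 and Foxe3 have none.

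Further peaks lay inside 8 forkhead genes away from a basic TSS. The share of all protein-coding genes with such peaks was not taken, and gene length was not matched. Whether 8 is more or fewer than usual was therefore not tested. Foxp1, a gene of 597384 bp, held 5 of them, 1189 to 1902 bp wide and all in introns of basic transcripts. The peak of 1902 bp covered position 99096205, a Foxp1 start in the comprehensive annotation. Foxk1 held 2 intronic peaks, of 2498 and 3974 bp, the latter nearly as wide as its TSS peak. Foxn3 held a peak of 2449 bp at the 5′ end of the gene, over comprehensive starts at positions 99563508 to 99563582.

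Foxo6 held a peak of 2462 bp, 3329 bp from its TSS, and Foxj2 a peak of 1041 bp that covered position 122826675, a comprehensive Foxj2 start. In Foxn1, a gene without a TSS peak, an intronic peak of 1243 bp lay 22365 bp from the TSS. Those in Foxp3 and Foxq1 were given above. Foxp1, Foxk1, Foxn3, Foxo6 and Foxj2 thus had intragenic peaks besides a TSS peak.

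Genes that act with the forkhead proteins were taken from 4 lists drawn up from general knowledge, and their shares stand beside the 49.4% of all genes. The lists were chosen with earlier results of these data known, so their shares and intervals are descriptions only. Of the regulators of FOXO proteins in insulin and growth factor signalling, 22 of 22 had a TSS peak (85.1% to 100%). The widest were at Irs1 with 10395 bp and Irs2 with 8309 bp, which encode insulin receptor substrates, and at Sgk1 with 9578 bp, which encodes a kinase that phosphorylates FOXO.

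Of the genes known as FOXO targets, 15 of 19 had a peak, or 78.9% (56.7% to 91.5%). Cdkn1b, which encodes a cell cycle inhibitor, had a peak of 18196 bp, the transcriptional repressor gene Bcl6 of 8664 bp, the apoptosis gene Bcl2l11 of 6950 bp and the stress response gene Sesn1 of 6491 bp. The 4 without a peak were G6pc and Pck1, enzymes of gluconeogenesis in liver, Igfbp1, a liver-secreted binding protein, and Trim63, a ubiquitin ligase of muscle.

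All 12 FOXM1 targets, which are genes of mitosis and cell division, had a peak (75.8% to 100%), with the widest at Plk1 (6166 bp), Aurka (5447 bp), Aurkb (5432 bp) and Skp2 (5341 bp). The 11 partners of FOXK, FOXH1 and FOXP proteins all had a peak as well (74.1% to 100%), with the widest at Sin3a (8734 bp), Smad3 (6429 bp), Ctbp2 (5320 bp) and Mta1 (4840 bp). Foxh1 itself, the partner of the SMAD proteins, had none. Most genes of these lists are expressed in many cell types, and the lists were not matched to other genes by CpG content.

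The letters TGTTTAC, a core of the sequence that forkhead proteins bind, or their reverse complement GTAAACA were searched on both strands of the RefSeq promoters of 300 bases. The table held 28 of the 44 members. Those without an entry included Foxb1, Foxc2, Foxe1, Foxf1, Foxh1, Foxj1, Foxk1, Foxl1, Foxm1, Foxn2, Foxo4, Foxo6, Foxp2, Foxq1 and Foxs1. A match was found in 1 member, Foxa1, or 3.57% of the 28, in 4.08% of all 26794 genes in the table and in 3.51% of its protein-coding genes. In the Foxa1 promoter printed above it reads gtaaaca.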

How the data were processed

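H3K4me3 ChIP-seq of C127 cells was analysed from 1 deposited list covering all 3 replicates. The authors aligned reads to mm10 with Bowtie2, dropped those that mapped to several places, removed duplicates with SAMtools, called peaks per replicate against a matched control with MACS2, required overlap across replicates and merged peaks within 250 bp. Tool versions are not given in the sources used here. The deposited values are peak positions in bp with no score, and 13447 of 13451 peaks lay on the 20 chromosomes used. Repeated sequence can lack a peak, since multiply mapping reads were dropped.

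Starts were made 1-based. TSSs came from GENCODE vM21 basic transcripts and sequences from GRCm38.p6 and the RefSeq promoter table. CpGs were counted within 250 bp of each TSS and the highest count was used. Exons were those of the longest transcript. Every member was counted and named, except 1, which like 1 list gene is not reported here by name or plotted singly. Other genes are those starting in a member's peak, lying in a cluster, named after a member, or the 4 widest and up to 4 without a peak of each list. Genes at the peak nearest to a member and cell type markers were named after their values were seen. Promoters were printed for the members with the widest peak, those without a peak with the most and fewest CpGs, and a pair within a cluster, and Foxf2 was added after its values were seen. That of Foxf1, with the narrowest peak, has no entry in the table. Alternatives changed the TSS distance, the TSSs, the peak width, the islands, the linkage limit and the other-strand TSSs. Members and lists were chosen with earlier results of these data known. Python 3.11.15, numpy 2.4.6, scipy 1.17.1 and matplotlib 3.10.9 were used. The search for peaks near a position and the search for islands were tested on simulated data, and the other computations were not.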

Additional observations from a re-analysis of the deposited data

How the results depend on the processing

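The share of forkhead genes with a peak was 45.5% with a peak required to cover the TSS, which lost Foxs1, and 52.3% within 1000 bp, which gained Foxa3 and Foxh1. With 1 TSS per gene it was 45.5% and lost Foxp1, and with comprehensive GENCODE and RefSeq starts added it was 52.3% and gained Foxp3 and Foxq1. Peaks of at least 1000 bp gave the same 21 members. The share of all protein-coding genes ranged from 47.7% to 50.4% over these settings. The median width ranged from 3813 to 4252 bp, and the island share from 51.3% to 57.1%, the latter with stricter islands (79.0% of all genes). With members linked within 100 kb, 4 of 7 had a peak, and with added starts 6 of the 8 cluster members, or 75%, did. The share at 15 to 59 CpGs ranged from 26.1% to 30.4% and that at 60 or more from 86.7% to 93.3%. These ranges of CpG counts, and the count at 1 TSS per gene (26.1% of 23 and 92.3% of 13), were chosen after seeing the data.

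The peak list is 1 consensus of all replicates, so leaving out a replicate was not run. No paired analysis was possible because the results come from no test. Depth and peak height are unknown, and several classes of members hold fewer than 10 genes.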
